A study of Homo sapiens with 6 samples.

Results

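The ribosome biogenesis set described here holds 46 human genes: factors that process ribosomal RNA, proteins of small nucleolar ribonucleoproteins (RNPs), subunits and cofactors of RNA polymerase I, abundant nucleolar proteins, and the transcription factor gene MYC. Genes were found on the arrays by symbol, and where several probe sets name a gene the one brightest on average was kept. That gave 44 genes with a level, among 18417 genes tested on the array. NOP56 shares its probe set with the small nucleolar RNA SNORD56 and GNL3 was not analysed here. All 44 lay above the median gene in mean intensity and so passed the filter on dim genes that was tried as an alternative.

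Expression was measured on 6 arrays, 2 for each of 3 groups, in the prostate carcinoma cell line Du145. Control cells, cells in which a lentivirus had knocked down the tumour suppressor gene TSC2 with a short hairpin RNA (shTSC2), and cells labelled as adapted from that knockdown (shTSC2-adapted) were compared. All groups shared the high-glucose medium with 10% serum at 37 °C, 5% CO2 and hypoxia at 1% O2, with RNA taken after 24 h. Which virus the controls received, if any, how the adapted cells were obtained, and whether arrays of a group came from separate cultures are not given in the labels, so p-values measure the spread between these arrays only, which may be technical. TSC2 itself had log2 intensities of 7.52 and 7.59 in control, 6.67 and 6.55 in shTSC2 and 6.54 and 6.48 in shTSC2-adapted, so all 4 knockdown arrays lay below both controls. The epithelial keratin genes KRT8 and KRT18 were bright on every array (11.22 to 11.50 and 11.23 to 11.50), while the prostate-specific antigen gene KLK3, whose product Du145 cells are known to lack, stood at 5.01 to 5.29. Of 6 epithelial genes, markers of the carcinoma cells themselves, EPCAM and KRT19 fell in shTSC2 (-1.28 and -1.38) and KRT7 rose (0.43). Falls were 33.3% of that list and rises 16.7%, against 13.9% and 6.87% of all genes. Among the markers of other cells, NEFM and PAX2 of 6 for embryonic kidney packaging lines rose (0.99 and 0.49), 33.3% of that list. None of 6 fibroblast, 5 lymphoid and myeloid and 4 endothelial markers passed the test. The linear intensities of each list were summed and the log2 of the sum taken, so the brightest genes of a list weigh most. This value ranged over the arrays from 12.66 to 12.92 for the epithelial list and 10.50 to 11.00 for the packaging lines. It was 8.17 to 8.38 for fibroblasts, 7.19 to 7.39 for lymphoid and myeloid cells and 6.64 to 6.77 for endothelium. The part of these shifts in the results below was not tested. RNA of fewer cells of a kind and less RNA per cell cannot be told apart in bulk samples.

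Ribosomes are assembled in the nucleolus. RNA polymerase I copies the ribosomal DNA into a long precursor, small nucleolar RNPs guide chemical modification of that RNA, and the small subunit processome and the large subunit factors cut and fold it while ribosomal proteins join. MYC is known to activate many of the genes for these factors by binding, with its partner MAX, to the E-box CACGTG near their start sites, and mTORC1, the kinase that the TSC2 protein restrains, is known to promote RNA polymerase I transcription and the translation of ribosomal protein mRNAs.

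Since the genes of the set are known as a MYC-regulated group, their start sites were searched for the letters CACGTG, which read the same on both strands. Promoter windows of 250 bases before to 50 after the start, from RefSeq on GRCh38.p14, were at hand for 38 of the 46 genes, and 18 of the 38 (47.4%) held the letters in at least 1 window. Of all 15843 protein-coding genes with a window 10.9% held them, and of all 27305 genes with one 8.77%. The sequences below run from 100 bases before to 20 after the start, 5′ to 3′ on the gene's strand, with CACGTG in capitals. They show 4 genes that rose in shTSC2 and hold the letters, 2 that hold them and did not pass the test, and POLR1C, which rose, and DKC1, which fell, without them.
PNO1 (chr2:68157788-68157907, + strand): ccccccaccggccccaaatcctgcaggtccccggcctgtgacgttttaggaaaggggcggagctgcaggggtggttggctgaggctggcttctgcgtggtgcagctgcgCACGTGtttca
UTP4 (chr16:69132549-69132668, + strand): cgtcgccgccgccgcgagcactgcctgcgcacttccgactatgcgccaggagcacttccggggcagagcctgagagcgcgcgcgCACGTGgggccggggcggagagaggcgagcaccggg
FBL (chr19:39846360-39846479, - strand): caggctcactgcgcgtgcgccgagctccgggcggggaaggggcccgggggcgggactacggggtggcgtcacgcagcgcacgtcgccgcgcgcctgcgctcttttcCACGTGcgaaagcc
RRP9 (chr3:51941885-51942004, - strand): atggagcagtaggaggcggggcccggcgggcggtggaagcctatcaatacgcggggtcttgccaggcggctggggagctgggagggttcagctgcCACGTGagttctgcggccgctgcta
NAT10 (chr11:34105529-34105648, + strand): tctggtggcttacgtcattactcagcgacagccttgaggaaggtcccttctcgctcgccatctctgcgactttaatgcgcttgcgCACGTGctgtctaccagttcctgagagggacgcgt
UTP20 (chr12:101280005-101280124, + strand): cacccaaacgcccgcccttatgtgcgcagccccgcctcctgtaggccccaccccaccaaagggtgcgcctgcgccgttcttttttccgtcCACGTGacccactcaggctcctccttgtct
POLR1C (chr6:43516989-43517108, + strand): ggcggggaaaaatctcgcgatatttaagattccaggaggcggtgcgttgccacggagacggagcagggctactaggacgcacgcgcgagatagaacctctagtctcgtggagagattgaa
DKC1 (chrX:154762764-154762883, + strand): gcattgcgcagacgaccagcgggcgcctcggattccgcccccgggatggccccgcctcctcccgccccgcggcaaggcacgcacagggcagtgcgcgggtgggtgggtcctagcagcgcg

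The letters lie close to the start in most of these genes. Counted to their first base, they begin 16 bases before the start in UTP4, 15 in NAT10, 10 in UTP20 and 5 in RRP9, and at base 10 after it in PNO1 and base 7 in FBL. Of the 11 genes that rose in shTSC2, 8 had a window and 5 of these held CACGTG, the fifth being NOP2, where it begins at base 36. Of the 27 genes with a window that did not pass the test, 12 held it. A match describes the sequence only and is no evidence of binding.

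In shTSC2 against control, 11 of the 44 genes rose and 1 fell, while 32 did not pass the test. The rises were those of NOLC1, PNO1, UTP4, POLR1C, NOP2, RRP9, UTP23, NHP2, BOP1, RRN3 and FBL, at log2 differences between 0.35 and 0.97, and the fall was that of DKC1. Rises made up 25% of the set against 6.87% of all genes tested, and falls 2.27% against 13.9% (20.8% of all genes changed in either direction, by limma at an adjusted p of 0.05). All genes tested include dim ones, whereas the set lies in the brighter part, so these shares are not matched for intensity. With dim genes left out, 3343 of 9209 genes were called in either direction. In that fit 13 of the 44 genes rose and 1 fell. The calls of all its genes were not split by direction, so the 13 rises have no matched share beside them. Shares of single groups given below are likewise set against all genes, dim ones included. The median change of the set was 0.08, against 0.03 for all genes, and the rises belonged to a minority of the set. With arrays centred on their median over all probe sets, 8 genes rose and 1 fell (of all genes, 868 rose and 2962 fell, against 1266 and 2567 as deposited). Centring on the median of the genes tested gave 12 rises (1802 and 2257 over all genes), and quantile normalization gave 13 (1891 and 2111), both with no fall in the set. Leaving out control 1 or control 2 leaves 1 control array, and fewer genes were then called, both in the set and over all genes. DKC1 stood at -0.47 and -0.70 in these fits and was no longer called. Without shTSC2 2, fewer genes of the set rose and more fell, while the number called over all genes hardly changed. Beside DKC1, UTP11 (-0.47), WDR36 (-0.48) and WDR43 (-0.50) were then called as lower.

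**Figure D1:**
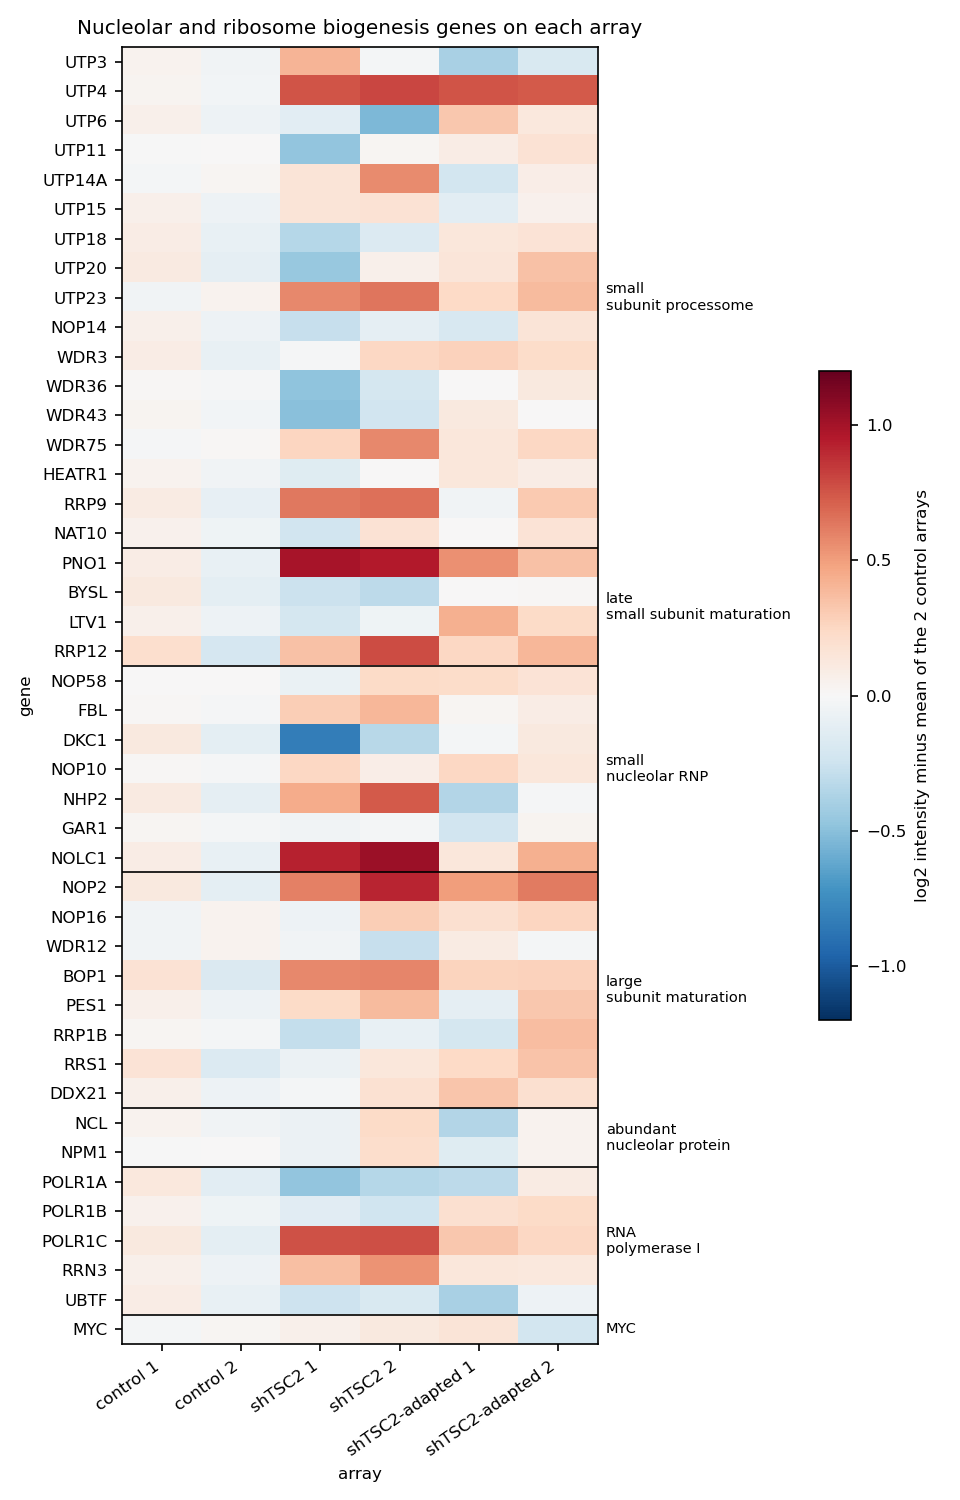
Log2 intensity of the 44 genes on each of the 6 arrays (columns), minus the gene's mean over the 2 control arrays, with genes grouped by role (rows). NOLC1 and PNO1 are the reddest on the shTSC2 arrays, UTP4 stays red on the shTSC2-adapted arrays, and MYC is pale throughout.

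Of 5 genes of RNA polymerase I and its initiation factors, 2 rose in shTSC2 and 3 did not pass the test. Rises were 40% of this group against 6.87% of all genes, and falls 0% against 13.9%. POLR1C, a subunit that polymerases I and III share, had log2 intensities of 8.40 and 8.17 in control, 9.05 and 9.06 in shTSC2 and 8.61 and 8.53 in shTSC2-adapted. Both shTSC2 arrays lay above all others, and the shTSC2-adapted arrays lay between the groups. It rose by 0.77 in shTSC2 (SE 0.11, adjusted p = 0.00311). RRN3, the factor that brings RNA polymerase I to the promoter, stood at 9.19 and 9.06 in control, 9.49 and 9.66 in shTSC2 and 9.26 and 9.25 in shTSC2-adapted, and rose by 0.45 (SE 0.10, adjusted p = 0.0216). The 3 groups did not overlap for RRN3 either, although the shTSC2-adapted arrays were nearer to control. RRN3 has near-identical pseudogene copies on 3 further probe sets that name several genes, so its level is uncertain to that degree. The rise of RRN3 was no longer called without control 1 (adjusted p = 0.0875), control 2 (0.180) or shTSC2 2 (0.0627), and with arrays centred over all probe sets (0.0651).

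The large catalytic subunits and UBTF were not called in shTSC2. POLR1A, the largest subunit, stood at -0.41 in shTSC2 (adjusted p = 0.112) and POLR1B at -0.19 (0.216), and neither passed the test. POLR1B was 7.87 and 7.77 in control, 7.68 and 7.58 in shTSC2 and 8.01 and 8.05 in shTSC2-adapted, with the shTSC2-adapted arrays highest. UBTF, the factor that shapes active ribosomal DNA, was 8.79 and 8.62 in control, 8.46 and 8.52 in shTSC2 and 8.32 and 8.64 in shTSC2-adapted. Its shTSC2 arrays lay just below the controls, with a difference of -0.21 (95% interval -0.52 to 0.09, adjusted p = 0.298).

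The small subunit processome, the large particle that first assembles on the precursor RNA, gave 3 rises and no fall among 17 genes (median -0.03). Rises were 17.6% of this group against 6.87% of all genes, and falls 0% against 13.9%. UTP4, part of the subcomplex that joins the nascent RNA first, stood at 9.55 and 9.49 in control, 10.27 and 10.32 in shTSC2 and 10.27 and 10.26 in shTSC2-adapted. All 4 knockdown arrays were nearly level, well above both controls. In shTSC2 it rose by 0.78 (SE 0.09, adjusted p = 0.00161), a factor of 1.71. RRP9, a protein of the U3 small nucleolar RNP at the heart of the processome, was 6.72 and 6.53 in control, 7.26 and 7.29 in shTSC2 and 6.58 and 6.94 in shTSC2-adapted. It rose by 0.65 in shTSC2 (SE 0.14, adjusted p = 0.0154), and the shTSC2-adapted arrays overlapped control. UTP23, which helps to release a small nucleolar RNA from the precursor, was 7.36 and 7.44 in control, 7.98 and 8.04 in shTSC2 and 7.64 and 7.78 in shTSC2-adapted. It rose by 0.61 (SE 0.10, adjusted p = 0.00529), with the shTSC2-adapted arrays between the other groups. Without control 1 or control 2 the calls of RRP9 (adjusted p = 0.0622 and 0.138) and UTP23 (0.0635 and 0.0504) ended.

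The other 14 processome genes did not pass the test, with differences of either sign. Of the UTP4 subcomplex, WDR75 stood at 0.42 (adjusted p = 0.0544), UTP15 at 0.17, HEATR1 at -0.07 and WDR43 at -0.36 (0.0687). Of a further subcomplex, WDR36 stood at -0.35 (0.0798), UTP6 at -0.33, UTP18 at -0.25 and WDR3 at 0.12. WDR75 was 8.74 and 8.77 in control against 9.01 and 9.33 in shTSC2, while WDR43 was 9.59 and 9.53 against 9.06 and 9.33, so the arrays of both genes separated, in opposite directions. The RNA acetyltransferase gene NAT10 (-0.03), the processome genes UTP3 (0.20), UTP11 (-0.22), UTP14A (0.36) and UTP20 (-0.20) and the scaffold gene NOP14 (-0.19) complete the group. Without shTSC2 1, UTP6 passed as lower (adjusted p = 0.0308) and WDR75 (0.0131) and UTP14A (0.0352) as higher, as WDR75 did under 5 further settings, and without shTSC2 2 UTP11 (0.0233), WDR36 (0.0249) and WDR43 (0.0230) passed as lower.

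Late maturation of the small subunit was led by PNO1, an RNA-binding partner of the nuclease that makes the last cut. It stood at 7.54 and 7.36 in control, 8.44 and 8.40 in shTSC2 and 8.0 and 7.80 in shTSC2-adapted, and the 3 groups did not overlap. It rose by 0.97 in shTSC2 (SE 0.11, adjusted p = 0.00160), a factor of 1.96. RRP12, an export factor, reached 7.79 and 8.22 in shTSC2 against 7.64 and 7.24 in control, a difference of 0.56 that did not pass (adjusted p = 0.0663; 0.0249 without shTSC2 1). BYSL, a processing factor, stood at -0.28 and LTV1, which leaves the particle in its last steps, at -0.13 (adjusted p = 0.109 and 0.481).

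**Figure D2:**
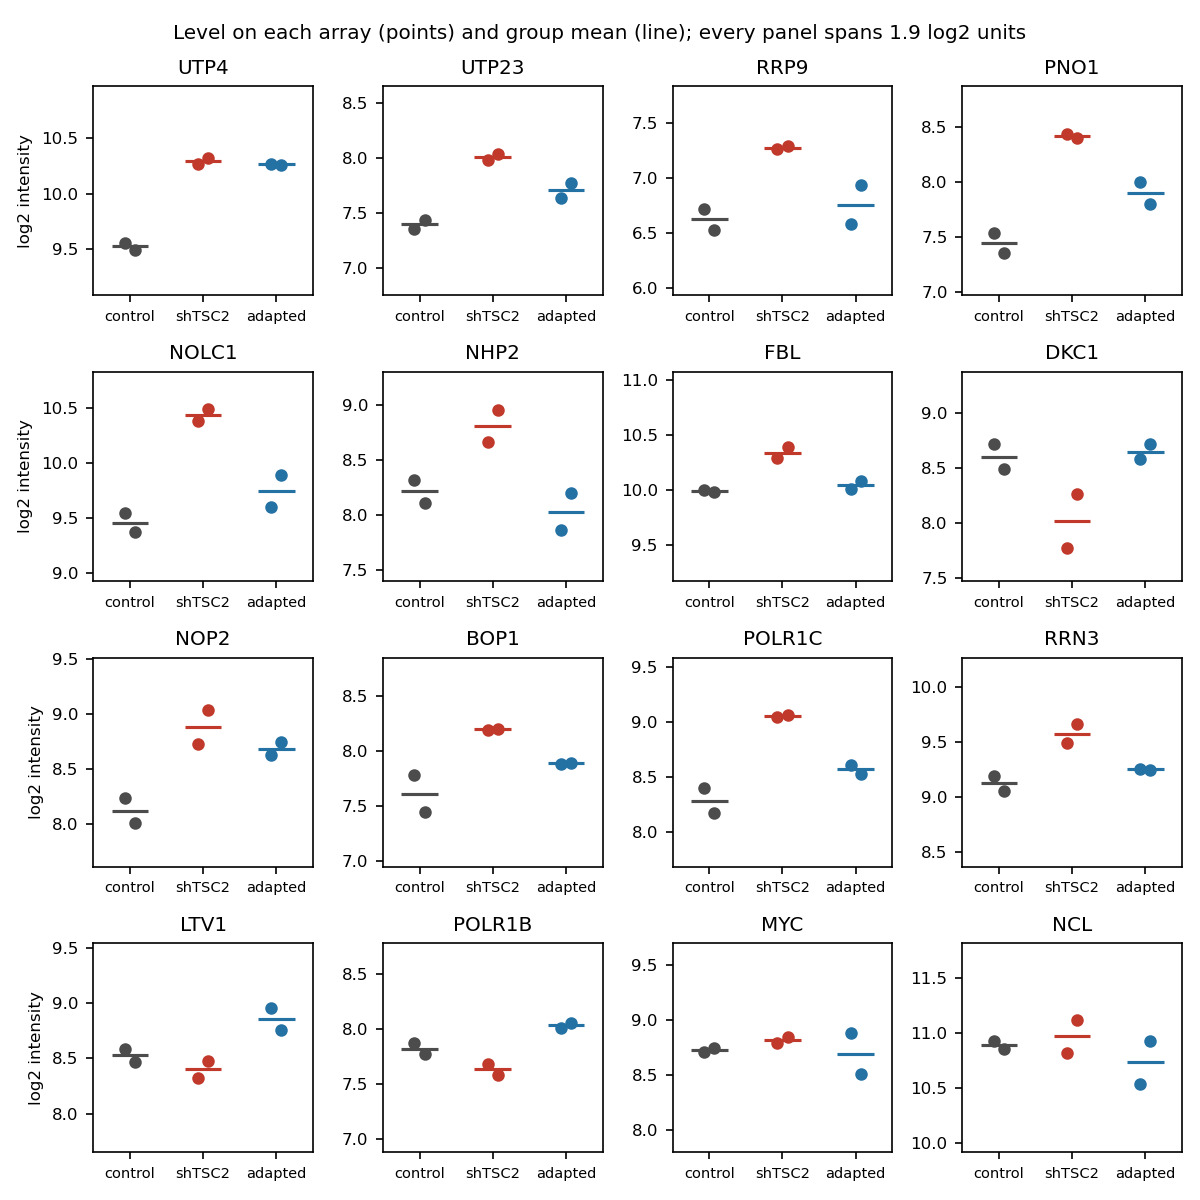
Log2 intensity (vertical axis) of 16 genes by group (horizontal axis), with a point for each of the 2 arrays and a line for the group mean. UTP4 has both knockdown groups near 10.3 against 9.5 in control, and PNO1 and POLR1C have shTSC2-adapted between the others. For NHP2 and RRP9 shTSC2-adapted overlaps control, with 1 array below both controls for NHP2 and 1 above both for RRP9. The MYC arrays lie between 8.51 and 8.88.

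Transcripts of 7 small nucleolar RNP proteins gave 3 rises and 1 fall in shTSC2. Rises were 42.9% of this group against 6.87% of all genes, and falls 14.3% against 13.9%. NOLC1, a chaperone that carries these RNPs to the nucleolus, stood at 9.55 and 9.37 in control, 10.38 and 10.49 in shTSC2 and 9.60 and 9.89 in shTSC2-adapted. The shTSC2 arrays lay far above the rest, and the lower shTSC2-adapted array lay just above control 1. NOLC1 rose by 0.97 in shTSC2 (SE 0.13, adjusted p = 0.00242), a factor of 1.97. FBL, the methyltransferase of the box C/D class, was 10.00 and 9.98 in control, 10.29 and 10.39 in shTSC2 and 10.01 and 10.08 in shTSC2-adapted, and rose by 0.35 (SE 0.09, adjusted p = 0.0369). That was the smallest rise of the set. It did not pass without control 1 (adjusted p = 0.180), control 2 (0.214), shTSC2 2 (0.0935) or either shTSC2-adapted array, or with only the 4 arrays compared (0.0532 each), with the replicate block (0.0561), with arrays centred over all probe sets (0.151) or with the gene length trend removed (0.0866). NOP58, which with NOP56 holds the methyltransferase in place, stood at 0.07 (adjusted p = 0.713).

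The H/ACA class, which converts uridine to pseudouridine, consists of the enzyme DKC1 and the proteins NHP2, NOP10 and GAR1. DKC1 stood at 8.72 and 8.49 in control, 7.78 and 8.27 in shTSC2 and 8.58 and 8.72 in shTSC2-adapted. Both shTSC2 arrays lay below all others, but well apart from each other. DKC1 fell by 0.58 (SE 0.17, adjusted p = 0.0499), at the edge of the threshold. DKC1 was no longer called without control 1 (adjusted p = 0.280), control 2 (0.129), shTSC2 1 (0.136), or either shTSC2-adapted array (0.0783 each), and under 6 of 9 other settings. NHP2 was 8.32 and 8.11 in control, 8.66 and 8.95 in shTSC2 and 7.86 and 8.20 in shTSC2-adapted, and rose by 0.59 in shTSC2 (SE 0.16, adjusted p = 0.0350). It did not pass without control 1 (0.101), control 2 (0.234) or shTSC2 2 (0.119), with arrays centred over all probe sets (0.0602) or with the gene length trend removed (0.0578). A further NHP2 probe set showed 0.56 (adjusted p = 0.0717 in the fit of every probe set, not called). NOP10 stood at 0.16 and GAR1 at -0.03 (adjusted p = 0.313 and 0.885), and neither passed. Whether the transcripts of these partner proteins differed in their change was not tested.

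Of 8 large subunit factors, NOP2 and BOP1 rose (25%, against 6.87% of all genes) and none fell (0%, against 13.9%). NOP2, an RNA methyltransferase long used as a proliferation antigen, stood at 8.24 and 8.01 in control, 8.73 and 9.04 in shTSC2 and 8.63 and 8.75 in shTSC2-adapted. All 4 knockdown arrays lay above both controls. It rose by 0.76 in shTSC2 (SE 0.14, adjusted p = 0.00813; 0.0889 without control 2). BOP1, which works in a complex with PES1 and WDR12, was 7.78 and 7.44 in control, 8.19 and 8.20 in shTSC2 and 7.88 and 7.89 in shTSC2-adapted, and rose by 0.59 (SE 0.12, adjusted p = 0.0157; 0.123 without control 2). A further BOP1 probe set showed 0.46 (0.0751, not called). PES1 stood at 0.30 (adjusted p = 0.207) and WDR12 at -0.16 (0.379). NOP16 (0.11), RRP1B (-0.19), RRS1 (0.03) and the RNA helicase gene DDX21 (0.08) had adjusted p-values from 0.519 to 0.910.

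The abundant nucleolar proteins and MYC gave no call. NCL, nucleolin, stood at 10.93 and 10.85 in control, 10.82 and 11.12 in shTSC2 and 10.54 and 10.93 in shTSC2-adapted. NPM1, nucleophosmin, was 11.82 and 11.83 in control, 11.75 and 12.04 in shTSC2 and 11.68 and 11.87 in shTSC2-adapted. For both genes the arrays of all groups overlapped, and the differences in shTSC2 were 0.08 (95% interval -0.29 to 0.45) and 0.07 (-0.23 to 0.37). MYC stood at 8.71 and 8.75 in control, 8.79 and 8.85 in shTSC2 and 8.88 and 8.51 in shTSC2-adapted. Its shTSC2 arrays lay just above the controls, and the shTSC2-adapted arrays were the highest and the lowest of all 6. The difference was 0.09 in shTSC2 (95% interval -0.22 to 0.40, adjusted p = 0.686) and -0.03 in shTSC2-adapted (-0.34 to 0.27, adjusted p = 0.958). Differences within these intervals could not be told from no change, and the MYC protein was not measured.

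**Figure D3:**
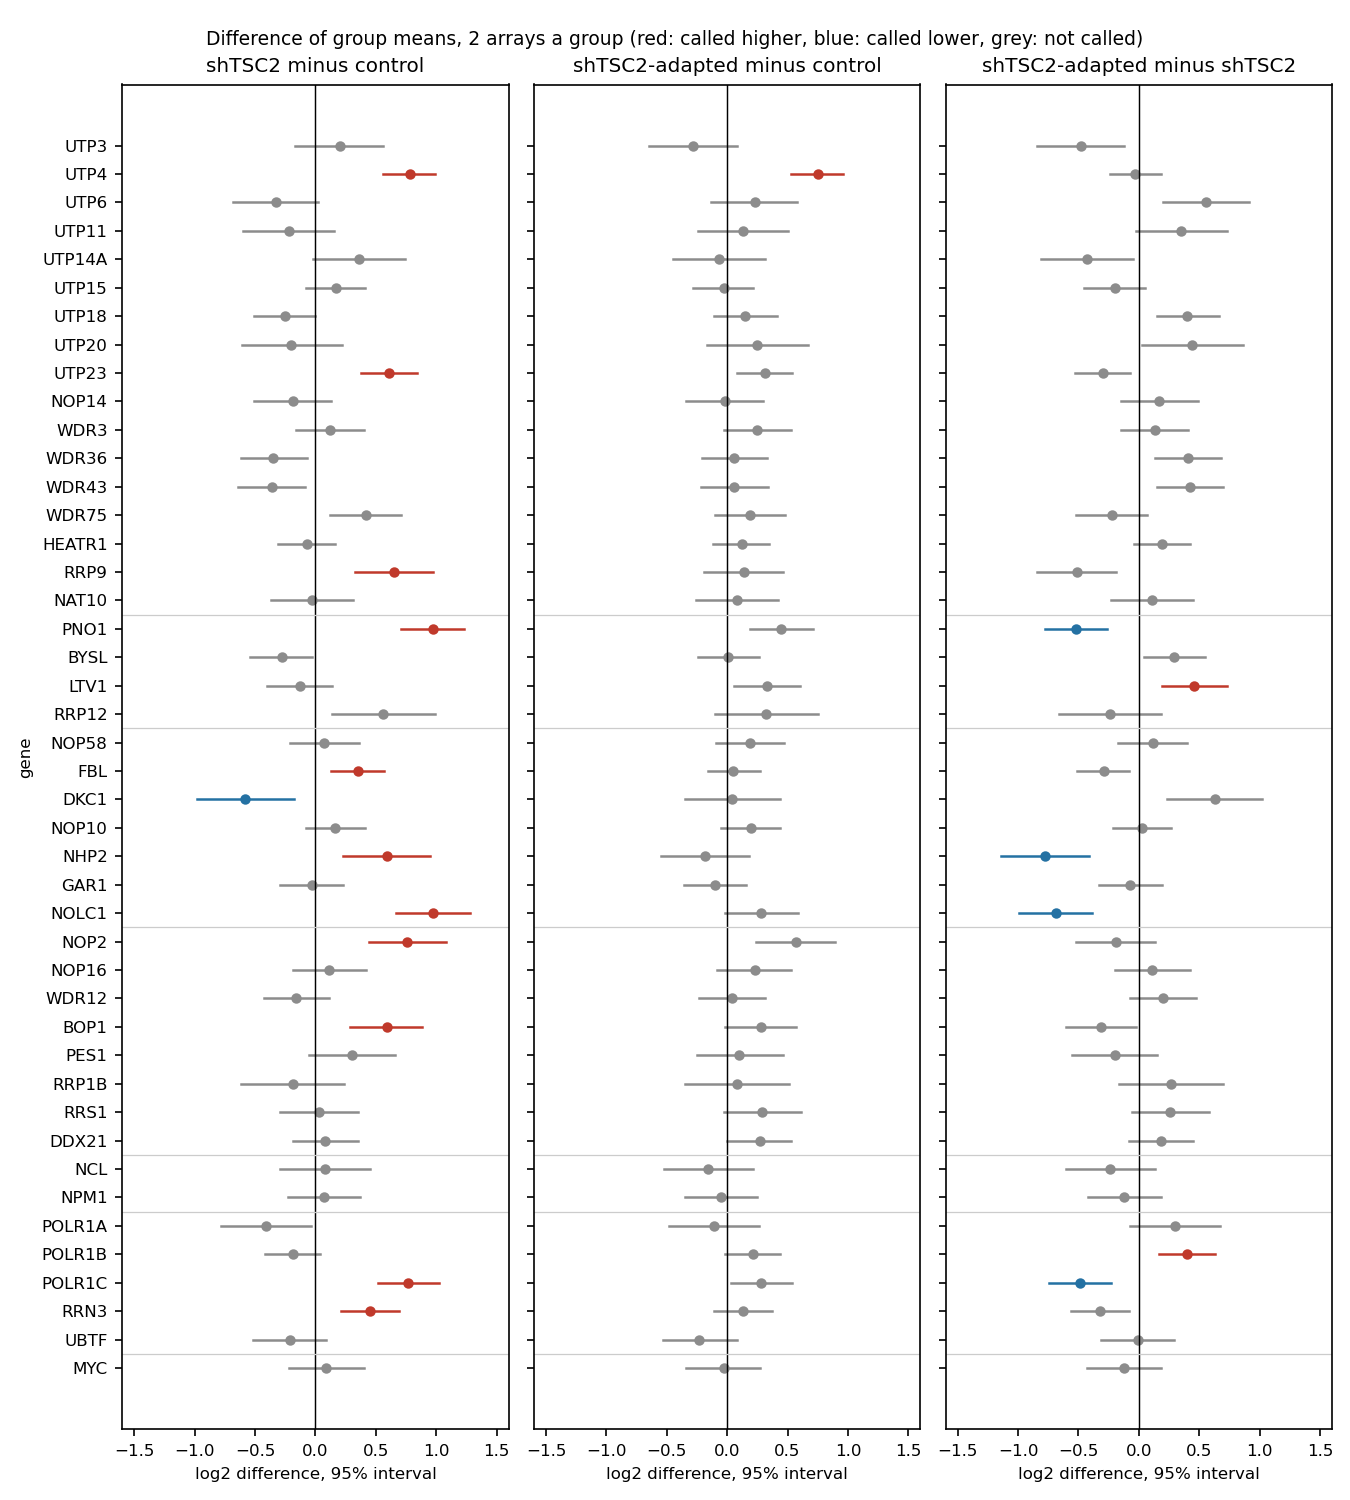
Difference of group means (points, log2) with its 95% interval from limma (lines) for the 44 genes in the 3 comparisons, 2 arrays a group. Red intervals are called higher and blue ones lower: 11 and 1 in shTSC2 against control, 1 and 0 in shTSC2-adapted against control, and 2 and 4 in shTSC2-adapted against shTSC2.

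In shTSC2-adapted against control, UTP4 was the one gene of the 44 that passed the test, as higher, and 43 did not pass. It rose by 0.75 (95% interval 0.53 to 0.96, adjusted p = 0.0341). Of all genes 0.0543% rose and 0.206% fell in this comparison (0.261% in either direction), so few calls were made anywhere. That call was lost when control 1 was left out (adjusted p = 0.444), and likewise for control 2 (0.478), for the first (0.195) and the other (0.123) shTSC2-adapted array, and with the replicate block (0.0800). In these fits the difference lay between 0.71 and 0.77. NOP2 stood at 0.57 (95% interval 0.24 to 0.89, adjusted p = 0.143), PNO1 at 0.45 (0.19 to 0.71, 0.155), LTV1 at 0.33 (0.06 to 0.60, 0.295) and UTP23 at 0.31 (0.08 to 0.54, 0.250). Their shTSC2-adapted arrays lay above both controls, but none passed over all genes. The median of the set was 0.13, against -0.00 for all genes.

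The adapted cells were then set against shTSC2. This comparison shares its shTSC2 arrays with the first, so a gene that was high on those arrays enters both. Of the 6 epithelial markers, EPCAM, KRT19 and CDH1 were called higher in shTSC2-adapted than in shTSC2 (median of the list 0.80), and none was called lower; their part in the results was not tested. NHP2 fell by 0.78 (SE 0.16, adjusted p = 0.0202), NOLC1 by 0.69 (SE 0.13, adjusted p = 0.0153), PNO1 by 0.52 (SE 0.11, adjusted p = 0.0259) and POLR1C by 0.49 (SE 0.11, adjusted p = 0.0288). POLR1B rose by 0.40 (SE 0.10, adjusted p = 0.0358), and LTV1, at 8.59 and 8.47 in control, 8.32 and 8.48 in shTSC2 and 8.96 and 8.76 in shTSC2-adapted, rose by 0.46 (SE 0.11, adjusted p = 0.0408). The 4 falls were 9.09% of the set against 3.24% of all genes, and the 2 rises 4.55% against 9.25% (12.5% of all genes in either direction). UTP4 stood at -0.03 (95% interval -0.24 to 0.18) and NOP2 at -0.19 (-0.52 to 0.13). DKC1 stood at 0.63 (adjusted p = 0.0544), UTP6 at 0.56 (0.0552), UTP18 at 0.40 (0.0534) and RRP9 at -0.51 (0.0520), each just outside the threshold.

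These calls were less firm than those of the first comparison. Without shTSC2-adapted 1 none of the 6 genes passed, with NHP2 at an adjusted p of 0.110, NOLC1 at 0.0816, PNO1 at 0.0559, POLR1C at 0.0952, POLR1B at 0.120 and LTV1 at 0.194. Without shTSC2-adapted 2, NOLC1 and NHP2 passed while PNO1 (0.119), POLR1C (0.121), POLR1B (0.130) and LTV1 (0.0655) did not, and without either control NOLC1 alone passed (NHP2 0.0511, POLR1C 0.0564, PNO1 0.0628, POLR1B 0.0913 and LTV1 0.0957). Without shTSC2 1, PNO1 (0.0608), POLR1C (0.0572) and LTV1 (0.106) did not pass, and without shTSC2 2, NHP2 (0.0556), POLR1C (0.0579) and POLR1B (0.0832) did not. Without shTSC2 2, 7 genes passed as higher, among them DKC1 (0.0107), UTP11, UTP18, UTP20, WDR36 and WDR43. With arrays centred on their median, none rose and 5 fell, with quantile normalization none rose and 8 fell, and with arrays centred over all probe sets 4 rose and 4 fell. Of all genes, 1703 rose and 597 fell as deposited, against 1474 and 821 with median centring, 1345 and 942 with quantile normalization and 1827 and 537 with centring over all probe sets.

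The wider pathway was read from 5 further lists with 107 genes tested: other RNA polymerase I components, other small and large subunit factors, small nucleolar RNP assembly factors and the RNA exosome. In shTSC2, 17 of the 107 rose (15.9%) and 5 fell (4.67%), with a median of 0.13. Of all genes 6.87% rose and 13.9% fell, with a median of 0.03. RIOK2, a kinase of late small subunit maturation, stood at 7.60 and 7.52 in control, 9.04 and 8.85 in shTSC2 and 7.61 and 7.74 in shTSC2-adapted. Its shTSC2 arrays lay far above all others, and it rose by 1.39 (SE 0.11, adjusted p = 0.000520) and was lower by 1.27 in shTSC2-adapted than in shTSC2. Of 35 small subunit factors 5 rose and 1 fell, RIOK2 and the nucleolar protein gene RRP8 (0.60) leading and the helicase gene DDX10 falling (-0.43). Of 39 large subunit factors 7 rose, led by URB2 (0.69) and RPF2 (0.59), and NOP53 fell (-0.76). Of 11 polymerase I components the subunits POLR1G (0.47) and POLR1F (0.44) rose, and 0 of 9 assembly factors passed.

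The exosome, which trims ribosomal RNA precursors from their ends, did not follow one direction. Of 13 genes 3 rose and 3 fell in shTSC2 (23.1% each way, against 6.87% of all genes higher and 13.9% lower). The nuclease gene DIS3 (0.73) and the ring subunit gene EXOSC5 (0.50) rose, while C1D (-0.81), a cofactor, and EXOSC10 (-0.44), the nuclear nuclease, fell. In shTSC2-adapted against control none of the 107 genes passed (limma; lowest adjusted p = 0.136). RNA polymerase III, which makes the small ribosomal RNA outside the nucleolar precursor, had calls both ways. Of 19 genes 6 rose (31.6%), led by POLR3G (1.06) and GTF3C6 (0.84), and 4 fell (21.1%), led by GTF3C2 (-0.99) and GTF3C5 (-0.72).

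A list of MYC targets outside the nucleolus gave rises and no fall. Of its 14 genes tested, 7 rose (50%, against 6.87% of all genes) and none fell in shTSC2, with a median of 0.39. PA2G4, a growth regulator that enters the nucleolus, was 10.43 and 10.24 in control, 11.03 and 11.17 in shTSC2 and 10.72 and 10.99 in shTSC2-adapted, and rose by 0.76 (adjusted p = 0.00612). IMPDH2, an enzyme of guanine nucleotide synthesis, rose by 0.70 (adjusted p = 0.00237) and stood 0.80 lower in shTSC2-adapted than in shTSC2. Of 13 genes of the MYC network, MGA (-0.80) and MXD4 (-0.71), both of which encode MAX partners that oppose MYC, fell and none rose. These 2 were 15.4% of the list, near the 13.9% of all genes that fell, and MAX stood at -0.01. Of 5 genes listed for nucleolar stress, 1 fell and 1 rose in shTSC2. That was 20% each way, against 13.9% of all genes lower and 6.87% higher. MDM2, the ubiquitin ligase that free ribosomal proteins can inhibit, fell by 0.90, and CDKN1A, a cell cycle inhibitor, rose by 0.50. RPL5 (0.20, adjusted p = 0.311), RPL11 (-0.05, 0.782) and CDKN2A did not pass. These lists were chosen with earlier results of the data known and are described by counts only.

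**Figure D4:**
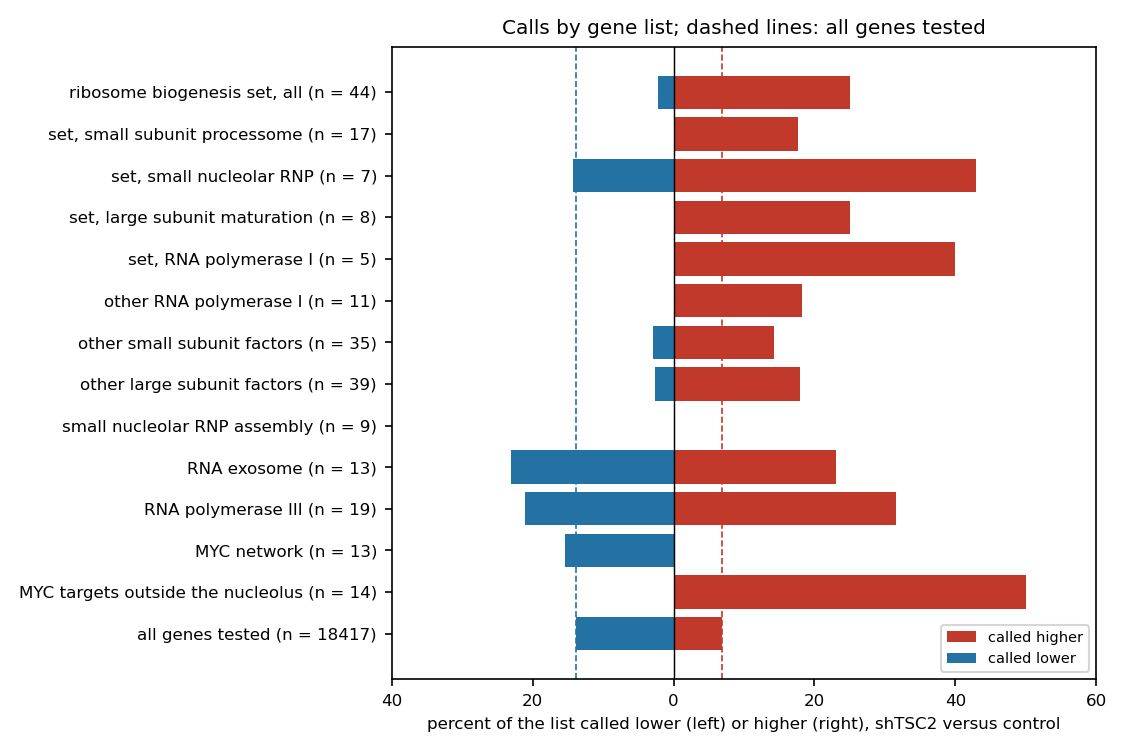
Percent of each gene list called lower (blue, left) or higher (red, right) in shTSC2 against control by limma, with the number of genes tested in brackets and all genes as dashed lines. Rises reach 25% of the ribosome biogenesis set and 50% of the MYC targets outside the nucleolus, against 6.87% of all genes, while the exosome and RNA polymerase III lists extend to both sides.

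Small nucleolar RNAs encoded inside genes of the set were read beside their hosts, by position in the RefSeq gene table, which gives no strand. Of those in NCL, SNORD82 stood at 3.57 and 3.74 in control and 4.62 and 4.05 in shTSC2. It was called higher (adjusted p = 0.0367), but its control levels were under the array's lower quartile (4.33) and were not shown to be above background, so no size is given. SNORA75 (0.78) and SNORD20, also below that quartile on every array, did not pass (0.251 and 0.352). SNORA75 was 6.87 on shTSC2 1 and 5.40 on shTSC2 2, so 1 array carried its difference, and the level of NCL itself did not pass in any comparison. In NOP56, whose own level was not read, SNORD57 (0.53, adjusted p = 0.0373) and SNORA51 (0.56, 0.0142) rose.

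Arrays of a group also differed by number within the set. On shTSC2 2, 37 of the 44 genes were brighter than on shTSC2 1, with a median difference of 0.17, against -0.02 and 46.2% of all genes. In control 8 genes were brighter on array 2 and 35 dimmer (median -0.12), and in shTSC2-adapted 30 were brighter (median 0.11). Of all genes 48.1% were brighter on array 2 in control (median 0.00) and 52.9% in shTSC2-adapted (median 0.02). The median of the set against the control mean was -0.04 on shTSC2 1 and 0.17 on shTSC2 2, so the sign of the median in shTSC2 depends on which array is read. The genes that rose did so on both shTSC2 arrays. They were picked by a test on these same arrays, so that is no separate support. Gene spans of the set had a median of 24.9 kb against 27.3 kb for protein-coding genes. With the trend of change along gene span removed, 11 genes rose and 1 fell in shTSC2. These were not all the same genes: FBL and NHP2 were no longer called, and RRP12 and WDR75 were called as higher. Of all genes in that fit 7.51% rose and 13.7% fell.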

How the data were processed

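Total RNA (Trizol, 100 ng labelled with biotin by a whole-transcript kit, per the labels' protocols) of Du145 cells was measured on 6 arrays. The authors deposited 1 linear intensity per probe set and array, made with RMA, as named in the submitters' notes on processing; no version or genome build is stated in the sources. RMA makes arrays alike in distribution, so a change shared by most genes is partly removed. Log2 of the intensities was used as it stood: each lay within 6.99e-10 of a number with 2 decimals. Median intensities were 58.1 to 63.1. Arrays have no read depth, and their number limits the precision.

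Of 33297 probe sets, 19460 carry 1 gene symbol in the platform annotation, 1754 several and 12083 are unnamed here; 19429 matched the GRCh38.p14 gene table. The brightest probe set per gene left 18417 genes. limma 3.58.1 (R 4.3.3) fitted a linear model of the 3 groups over the 6 arrays (eBayes, default settings), two-sided, adjusted by Benjamini-Hochberg over all genes, with a threshold of 0.05. The fit was tried on simulated data with independent noise in each gene. That trial does not copy shifts that many genes share between arrays of a group, so it does not speak to them. The genes, their grouping by role, the further lists and the tests were chosen with earlier results of these data known. Genes called in any comparison, and MYC, NCL, NPM1, FBL and UBTF in any case, are given on every array, and of other lists the 2 largest rises and falls among called genes, with others named as examples after their values were seen. Alternatives were quantile normalization, median centring, dim genes left out, every probe set tested, only the 4 arrays compared, a replicate block, an intensity trend in the prior, the gene span trend removed and each array left out; centring over all probe sets was added after the data were seen.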

Additional observations from a re-analysis of the deposited data

How the results depend on the processing

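Of the 12 calls of the set in shTSC2 against control, UTP4, PNO1, NOLC1 and POLR1C passed under all 15 alternatives, and no called gene reversed in any comparison. Leaving out an array of the group not compared amounts to the fit of only the 4 arrays compared. The 15 therefore hold repeats and are not all separate checks. Rises numbered 4 to 14 with an array left out and 8 to 13 otherwise. The single fall became 0 with quantile normalization, median centring, every probe set tested, only the 4 arrays compared, the replicate block and the intensity trend in the prior, and 0 to 4 with an array left out. Of all genes, 1175 to 3895 were called with an array left out, against 3833.

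In shTSC2-adapted against control, 48 of all genes passed, against 90 with median centring, 199 with centring over all probe sets, 121 with dim genes left out, 248 with only the 4 arrays compared, 104 with the gene length trend removed, 1 with the replicate block and 0 to 248 with an array left out. The rise of UTP4 went from 1 call to 0 with the replicate block and to 0 to 1 with an array left out.

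In shTSC2-adapted against shTSC2, the 2300 calls of all genes became 1113 with only the 4 arrays compared and 837 to 2600 with an array left out. The 2 rises became 0 with quantile normalization, median centring, only the 4 arrays compared and the intensity trend in the prior, 1 with the replicate block, 4 with centring over all probe sets, 6 with dim genes left out and 0 to 7 with an array left out. The 4 falls became 8 with quantile normalization, 1 with only the 4 arrays compared and 0 to 3 with an array left out. The cause of these moves was not tested.

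Array numbers share no stated batch. Differences of array 2 minus array 1 correlated across genes at -0.1 (control and shTSC2), -0.19 (control and shTSC2-adapted) and 0.21 (shTSC2 and shTSC2-adapted), so the numbers were not taken to pair the arrays. With 2 arrays a group, the 95% interval of a difference reached a median of 0.29 to each side for genes of the set.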
